A study of Mus musculus with 8 samples.

Results

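Interferon-stimulated genes are the genes that a cell switches on when interferon binds its receptors. The 39 genes described here were listed by symbol, and all 39 matched an identifier in the deposited count tables and passed the filter on low counts, among 17179 genes that passed of 49315 identifiers. Whole esophagus of wild-type mice was sequenced at day 14, either after drinking water that held the detergent sodium dodecyl sulfate (SDS) at 0.5% or with no treatment. The SDS group has 3 libraries and the control group 5, and the labels give no strain, age, sex or batch and do not say whether each library is 1 animal. All p-values therefore measure the spread between libraries, which may be technical.

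Type I and type III interferons act through receptors that activate a complex holding Stat2 and Irf9, which binds the interferon-stimulated response element in the promoters of its targets. Interferon gamma, made by T cells and natural killer cells, acts through gamma-activated sites, and it drives the guanylate-binding proteins and the immunity-related GTPases most strongly. In squamous epithelium, keratinocytes and resident macrophages both carry the receptors for type I interferon and interferon gamma. The target genes include sensors of foreign nucleic acid, enzymes that block viral RNA and proteins that attack vacuoles holding microbes.

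Promoter stretches of 8 members are shown because each holds the core that interferon signalling acts through, while their levels, given below, differ in pattern between libraries. The sequences are those of RefSeq on GRCm38.p6, which shares mm10 coordinates with the deposited tables, each 120 bases read 5′ to 3′ on the strand of the gene. Capitals mark the core of the response element (GAAA, any 2 bases, GAAA), searched on both strands, where overlapping matches run together.
Isg15 (chr4:156200826-156200945, minus strand): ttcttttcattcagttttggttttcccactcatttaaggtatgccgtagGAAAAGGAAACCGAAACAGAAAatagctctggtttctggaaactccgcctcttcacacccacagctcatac
Ifit1 (chr19:34640739-34640858, plus strand): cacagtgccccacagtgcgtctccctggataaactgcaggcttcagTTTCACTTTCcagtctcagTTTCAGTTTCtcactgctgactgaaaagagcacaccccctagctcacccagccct
Ifit3 (chr19:34583335-34583454, plus strand): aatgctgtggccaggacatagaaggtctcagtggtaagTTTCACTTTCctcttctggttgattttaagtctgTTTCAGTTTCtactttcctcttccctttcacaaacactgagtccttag
Ifit3b (chr19:34607731-34607850, plus strand): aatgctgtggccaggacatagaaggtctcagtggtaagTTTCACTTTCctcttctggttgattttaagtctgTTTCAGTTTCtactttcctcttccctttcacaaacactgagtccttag
Oas1a (chr5:120907478-120907597, minus strand): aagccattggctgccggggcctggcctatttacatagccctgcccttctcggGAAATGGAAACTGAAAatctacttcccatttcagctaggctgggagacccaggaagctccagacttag
Oas3 (chr5:120777670-120777789, minus strand): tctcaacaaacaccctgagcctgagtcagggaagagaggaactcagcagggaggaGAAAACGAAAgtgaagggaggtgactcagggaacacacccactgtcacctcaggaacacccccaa
Igtp (chr11:58199467-58199586, plus strand): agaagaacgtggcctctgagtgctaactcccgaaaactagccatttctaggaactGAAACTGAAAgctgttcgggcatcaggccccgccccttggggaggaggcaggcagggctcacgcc
Irgm2 (chr11:58214858-58214977, plus strand): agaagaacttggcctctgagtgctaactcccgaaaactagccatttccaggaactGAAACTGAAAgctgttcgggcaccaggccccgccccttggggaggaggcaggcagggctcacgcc

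The stretches of Ifit3 and Ifit3b differed at 0 of 120 bases, and those of Igtp and Irgm2 at 3 of 120. Isg15 held 3 overlapping cores that began at positions -78 to -66 from the start of the gene, and Oas1a held 2 at -20 and -14. In Igtp and Irgm2 a gamma-activated site (TTCNNNGAA) began 11 bases before the core. Promoter windows of 300 bases, from 250 before to 50 after the start, were given for 27 members, and 18 of these genes held the core. By window it was present in 58.1% of 31 member windows, against 3.44% of all 32851 windows. The gamma-activated site was present in 29% of member windows, against 8.3% of all windows, and 6 members held both motifs (Bst2, Gbp5, Gbp7, Igtp, Irgm2 and Oas1a). These matches describe letters in a window and no binding was measured.

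The libraries held between 22033866 and 29802362 counts, so that 3 counts, the limit that a count of 0 allows, correspond to 0.101 to 0.144 CPM, the count scaled to the size of the library. This limit covers counting error only. Epithelial identity was present in every library: all 12 keratinocyte markers passed the filter and summed to 94100, 97400 and 157000 CPM in SDS libraries and to 43500 to 141000 CPM in the controls. The libraries differed in other cell types within their groups. Summed over 16 genes, macrophage and dendritic cell markers reached 539, 1060 and 224 CPM in SDS libraries 1, 2 and 3, against 215 to 360 CPM in controls. Adipocyte markers, a sign of fat attached to the tissue, summed to 2140, 312 and 579 CPM in SDS libraries and to 362 to 7170 CPM in the controls, highest in control library 4. Neutrophil markers summed to 6230, 5900 and 214 CPM in SDS libraries 1, 2 and 3 and to 50.1 to 62.1 CPM in the controls, so SDS library 3 stood apart from the other SDS libraries. S100a8 and S100a9, which keratinocytes also can express, made up most of that sum in the SDS libraries, and the other 9 markers summed to 135, 155 and 16.1 CPM in SDS libraries 1, 2 and 3 and to 4.9 to 32.2 CPM in the controls. Among those 9, Camp lay lower in every SDS library than in any control, and the ranges of Cxcr2 overlapped. Striated muscle markers summed to 16300 to 28700 CPM in SDS libraries and to 33000 to 45600 CPM in the controls. In bulk tissue, a change in the number of cells of a type and a change in RNA per cell cannot be told apart.

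No interferon-stimulated gene passed the test of SDS against control. By edgeR's quasi-likelihood test with Benjamini-Hochberg adjustment over all genes, 0 of 39 were called higher and 0 of 39 lower at an adjusted p of 0.05, where 0.623% of all tested genes were called higher and 0.425% lower (1.05% in either direction). At an unadjusted p under 0.05, 4 members lay higher (Oas3, Irf7, Oas1a and Zbp1) and 1 lower (Ifi27), against 9.98% and 8.53% of all genes. DESeq2 and limma-voom also called 0 of 39. The median log2 fold change was 0.07, with a lowest of -0.66 and a highest of 1.82, and the median of all tested genes was -0.005. SDS and control ranges overlapped for all 39 members, whereas the ranges lay apart upward for 6.49% of all tested genes and downward for 6.89%.

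**Figure D1:**
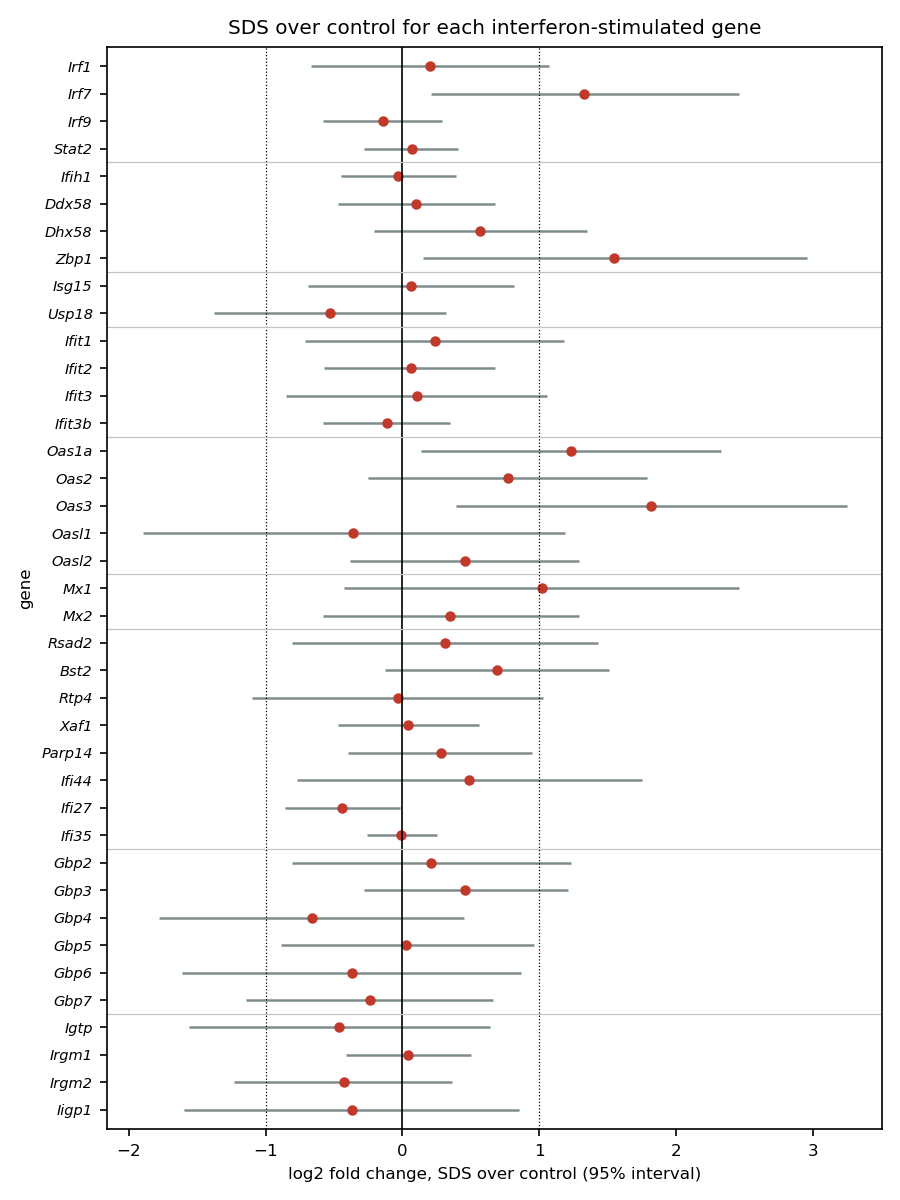
Points give the log2 fold change of SDS over control for each of the 39 genes and bars its 95% interval from the edgeR fit, with dotted lines at -1 and 1. For 13 genes the interval lies wholly between the dotted lines, and for 5 it does not reach 0 before adjustment.

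The width of the intervals sets what the data could show. The standard errors of the 39 fold changes ran from 0.11 to 0.68 with a median of 0.4, against a median of 0.22 over all tested genes. The 95% interval lay wholly below a 2-fold rise for 20 members and wholly above a 2-fold fall for 30. Ifi35, an interferon-induced leucine zipper protein, was the most tightly measured, at 21.0, 24.2 and 18.4 CPM in SDS libraries and 21.6, 21.6, 20.1, 23.3 and 20.0 CPM in the controls. Its log2 fold change was -0.01, with an interval from -0.26 to 0.25.

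The levels in untreated tissue were low. Of the 39 genes, 11 had a control mean of at least 10 CPM and 4 a mean under 1 CPM (Oas3, Mx1, Mx2 and Ifi44). Per kilobase of exon, Ifi27, a small mitochondrial membrane protein, had the highest level at 58.8 CPM in SDS and 79.9 CPM in control. Ifi35 stood at 12.3 CPM in SDS and 12.3 CPM in control, and the tethering protein Bst2, above Ifi35 in SDS and below it in control, at 18.0 CPM in SDS and 11.2 CPM in control. Below these in control lay Ifit3, Gbp2, Irf9 and Stat2, whose control means of 4.78 to 5.53 CPM per kilobase lay within the spread of Ifit3 between the control libraries. At the low end, Oas3 stood at 0.267 CPM per kilobase in SDS and 0.0762 CPM in control, the lowest of the controls, and Ifi44 at 0.224 CPM in SDS, the lowest there, and 0.158 CPM in control.

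Among the transcription factors, Irf7, which drives the type I interferon genes themselves, measured 6.17, 21.3 and 4.92 CPM in SDS libraries 1, 2 and 3 and 3.75, 4.04, 2.84, 7.27 and 3.51 CPM in control libraries 1 to 5. SDS library 2 alone lay above every control. The log2 fold change of Irf7 was 1.33 ± 0.49 (SE; edgeR quasi-likelihood adjusted p of 0.198), and it was 0.37 without SDS library 2. Irf1, a factor induced by interferon gamma, measured 20.0, 26.8 and 10.3 CPM in SDS libraries and 8.23 to 24.2 CPM in controls (log2 0.20). Stat2 and Irf9, partners in the complex that binds the response element, had log2 fold changes of 0.07 (interval -0.28 to 0.41) and -0.14 (-0.58 to 0.29). Irf9 was highest in control library 3, at 35.4 CPM.

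The sensors of nucleic acid ranged from -0.03 to 1.55 in log2 fold change. Zbp1, which binds left-handed nucleic acid and can start necroptosis, measured 2.48, 7.94 and 1.25 CPM in SDS libraries and 1.40, 0.963, 0.591, 2.57 and 1.07 CPM in the controls. SDS library 2 stood above all controls and SDS libraries 1 and 3 lay within them. The log2 fold change was 1.55 ± 0.62 (SE) with an edgeR quasi-likelihood adjusted p of 0.227, and it was 0.49 without SDS library 2. The helicases Ifih1 (MDA5) and Ddx58 (RIG-I), which detect viral RNA in the cytoplasm, averaged 15 ± 1.93 and 10.2 ± 2.95 CPM in SDS (SD, n = 3) and 15.3 ± 3.16 and 9.52 ± 2.6 CPM in control (SD, n = 5). Their log2 fold changes were -0.03 and 0.10. Dhx58 (LGP2), the regulator of that pair, measured 3.69, 6.61 and 2.13 CPM in SDS libraries and 2.06 to 3.35 CPM in controls, with a log2 fold change of 0.57.

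The oligoadenylate synthetases make a short adenylate signal that turns on an RNA-degrading enzyme. Oas1a measured 1.69, 6.85 and 1.63 CPM in SDS libraries and 1.23, 1.11, 1.48, 1.89 and 1.49 CPM in the controls. Only SDS library 2 was outside the control range, and the log2 fold change of 1.23 ± 0.48 (SE; edgeR quasi-likelihood adjusted p of 0.218) became 0.20 without it. Oas3 measured 1.3, 3.62 and 0.751 CPM in SDS libraries and 0.102, 0.626, 0.886, 0.507 and 0.572 CPM in controls. SDS libraries 1 and 2 lay above every control and SDS library 3 did not. With a log2 fold change of 1.82 ± 0.63 (SE), Oas3 had the smallest p of the 39 (edgeR quasi-likelihood adjusted p of 0.171), and the value was 0.93 without SDS library 2. Oas2 measured 3.93, 11.2 and 2.09 CPM in SDS libraries and 2.97 to 3.72 CPM in controls. Its log2 fold change of 0.77 turned to -0.16 without SDS library 2. Oasl2 gave 0.46, and Oasl1, known in mice to restrain the translation of Irf7, gave -0.36 with 3.97, 3.37 and 1.29 CPM in SDS libraries and 1.47, 2.36, 10.1, 2.03 and 2.52 CPM in controls.

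**Figure D2:**
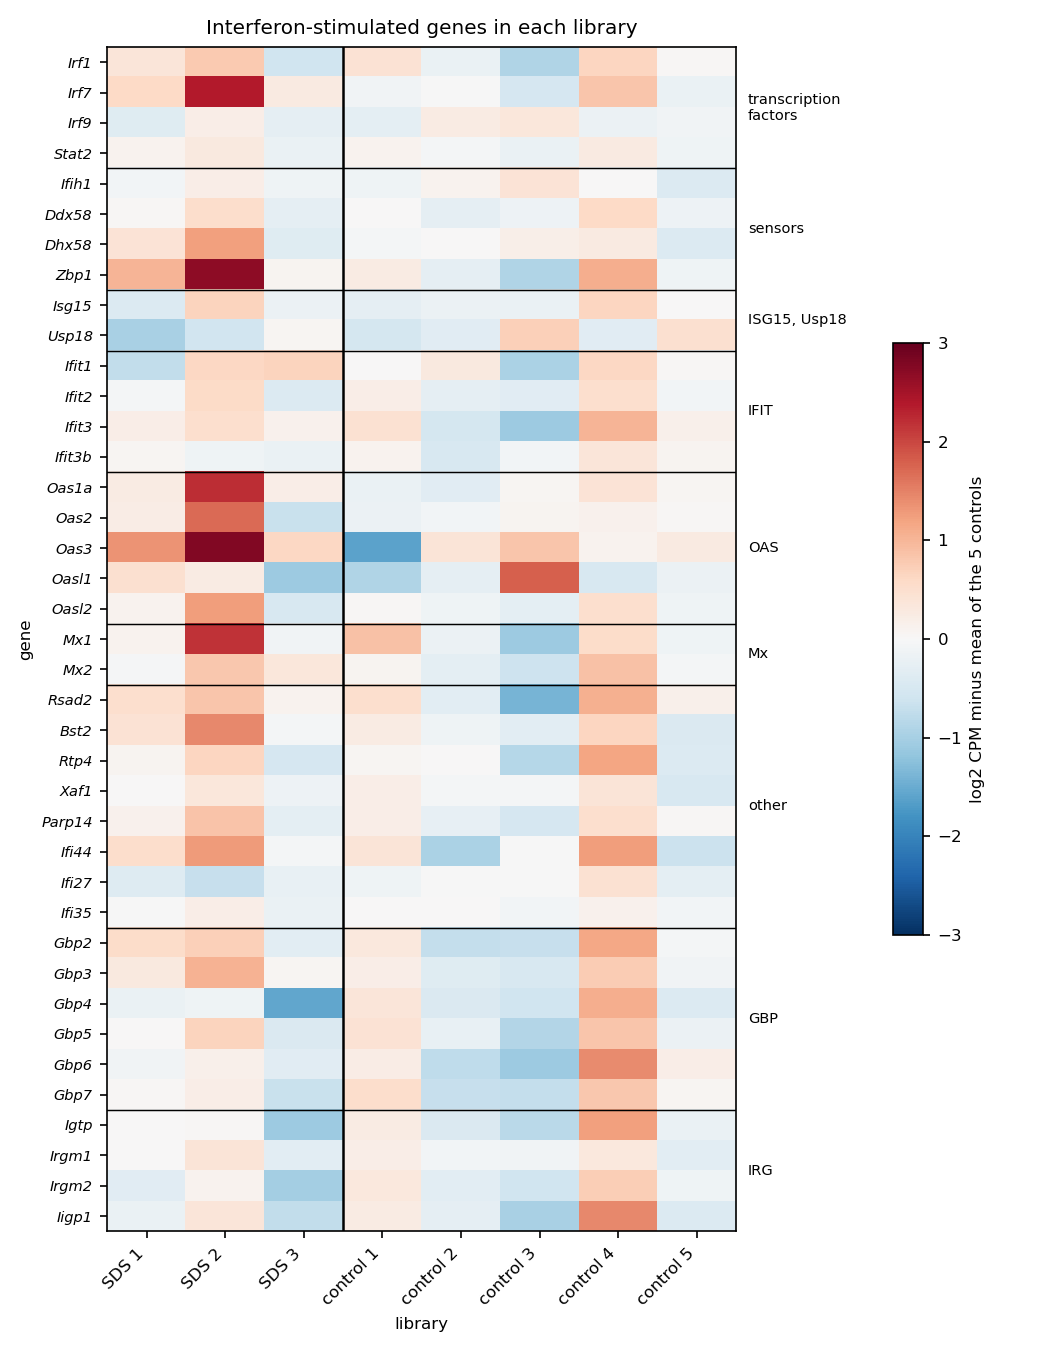
Each row is a gene and each column a library, and the colour is log2 CPM minus the mean of the 5 controls. The highest library was SDS library 2 for 18 genes and control library 4 for 16. Those libraries were highest for 16.9% and 21.8% of all tested genes.

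Isg15, Usp18 and the Ifit genes, classical targets of type I interferon, had log2 fold changes from -0.53 to 0.24. Isg15, a ubiquitin-like protein joined to other proteins, measured 1.57, 3.41 and 1.88 CPM in SDS libraries and 1.74, 1.88, 1.85, 3.35 and 2.14 CPM in the controls. The highest SDS library and the highest control were level, and the log2 fold change was 0.06 (interval -0.69 to 0.82). Usp18, which removes Isg15 and blocks the receptor, measured 2.51, 3.34 and 5.30 CPM in SDS libraries and 3.48 to 8.31 CPM in controls (log2 -0.53). The Ifit proteins bind foreign RNA, and the log2 fold changes of Ifit1, Ifit2, Ifit3 and Ifit3b were 0.24, 0.06, 0.11 and -0.11. Ifit1 measured 1.85, 4.95 and 5.09 CPM in SDS libraries and 1.59 to 4.90 CPM in controls. Ifit3 measured 9.82, 12.1 and 9.26 CPM in SDS libraries and 11.7, 5.87, 3.91, 17.2 and 9.53 CPM in controls, and the SDS values lay inside the control range. Ifit3b, a close copy with the same promoter stretch, measured 6.6, 5.76 and 5.46 CPM in SDS libraries and 4.48 to 8.18 CPM in controls. Reads could be divided between these copies in counting.

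The Mx proteins are GTPases that trap viral particles, and many laboratory strains carry a defective Mx1. Mx1 measured 0.786, 3.48 and 0.667 CPM in SDS libraries and 0.295 to 1.40 CPM in the controls, with a log2 fold change of 1.02 that became -0.16 without SDS library 2. Mx2 averaged 0.835 ± 0.270 CPM in SDS (SD, n = 3) and 0.651 ± 0.315 CPM in control (SD, n = 5). Bst2, which holds budding viruses at the cell surface, measured 13.2, 26.4 and 9.34 CPM in SDS libraries and 7.17 to 15.2 CPM in controls (log2 0.69, interval -0.13 to 1.51). Rsad2 (viperin), the ADP-ribosyltransferase Parp14, Ifi44, Xaf1 and Rtp4 gave 0.31, 0.28, 0.49, 0.04 and -0.03. Ifi27 measured 88.2, 71.5 and 99.0 CPM in SDS libraries and 105, 115, 114, 158 and 94.4 CPM in controls. SDS libraries 1 and 2 lay below every control and SDS library 3 did not, and the log2 fold change was -0.44 ± 0.18 (SE; edgeR quasi-likelihood adjusted p of 0.246).

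The guanylate-binding proteins and immunity-related GTPases, which coat and break vacuoles that hold microbes, reached their highest level in control library 4 for 8 of 10 genes. Gbp4 measured 4.56, 4.88 and 1.75 CPM in SDS libraries and 6.83, 3.90, 3.47, 11.4 and 3.97 CPM in the controls. SDS library 3 was the lowest and control library 4 the highest of all 8. The log2 fold changes of Gbp2 to Gbp7 were 0.21, 0.46, -0.66, 0.03, -0.37 and -0.24. Igtp (Irgm3) measured 7.51, 7.66 and 3.50 CPM in SDS libraries and 8.87, 5.54, 4.21, 17.6 and 6.48 CPM in controls (log2 -0.46), and it was 0.00 without control library 4. Iigp1 (Irga6) measured 6.44, 9.66 and 4.46 CPM in SDS libraries and 8.77, 6.12, 3.73, 20.2 and 5.57 CPM in controls. Its log2 fold change of -0.37 became 0.19 without control library 4. Irgm2 and Irgm1, which keep the effector GTPases off the cell's own membranes, gave -0.43 and 0.04, and Irgm2 measured 10.3, 14.1 and 6.38 CPM in SDS libraries and 8.68 to 21.8 CPM in controls. Gbp6 shares 29% of its exonic bases with a gene model on the same strand, and Igtp and Irgm2 share 162 bases, so their counts are uncertain in division.

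The libraries of each group varied together over many members. Averaged over the 39 genes, log2 CPM minus the control mean was 0.10, 0.76 and -0.27 for SDS libraries 1, 2 and 3, and 0.07, -0.23, -0.34, 0.61 and -0.12 in the controls. SDS library 2 was above every control for 19 of 39 members, or 48.7%, where this held for 24.5% of all tested genes. SDS library 1 was above every control for 3 members, or 7.69%, against 19.7% of all genes, and SDS library 3 for 1, or 2.56%, against 26.5%. SDS library 3 was below every control for 10, or 25.6%, against 28.4% of all genes. Control library 4 exceeded the other 4 controls for 33 members, or 84.6%, against 32.1% of all genes. Control library 3 lay below the other controls for 21, or 53.8%, against 24.8% of all genes.

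The families followed the libraries in unlike ways. Oligoadenylate synthetases stood at 0.48, 1.64 and -0.29 on that scale in SDS libraries 1, 2 and 3. In controls they stood between -0.57 and 0.50, and at 0.14 in control library 4. The control extremes came mainly from Oas3 (-1.6 in control library 1) and Oasl1 (-0.91 in control library 1 and 1.8 in control library 3). Oas1a, Oas2 and Oasl2 were each highest of the controls in control library 4, at 0.40, 0.14 and 0.50. Guanylate-binding proteins stood at 0.09, 0.45 and -0.54 in SDS libraries and reached 1.01 in control library 4. Immunity-related GTPases stood at -0.13, 0.22 and -0.79 in SDS libraries and at 0.93 in control library 4. Macrophage and dendritic cell markers stood at 1.3, 2.34 and -0.33 in SDS libraries and at 0.48 in control library 4, and all 16 were highest in SDS library 2, with none at 0 over all libraries. T cell and natural killer cell markers (11 of 20 tested) stood at 2.34, 2.45 and 0.52 in the SDS libraries and at 0.65 in control library 4, the highest control. By summed CPM over all 20, control library 4 was instead the lowest control, at 17.1 CPM against 24.2 to 28.5 CPM in the others. Fibroblast markers stood at 0.05, 0.82 and -1.32 in the SDS libraries and at 0.23 in control library 4. In control library 4, endothelial and adipocyte markers stood at 0.62 and 3.36 and keratinocyte markers at -0.83. The part of these cell types in the levels of the interferon-stimulated genes was not tested.

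**Figure D3:**
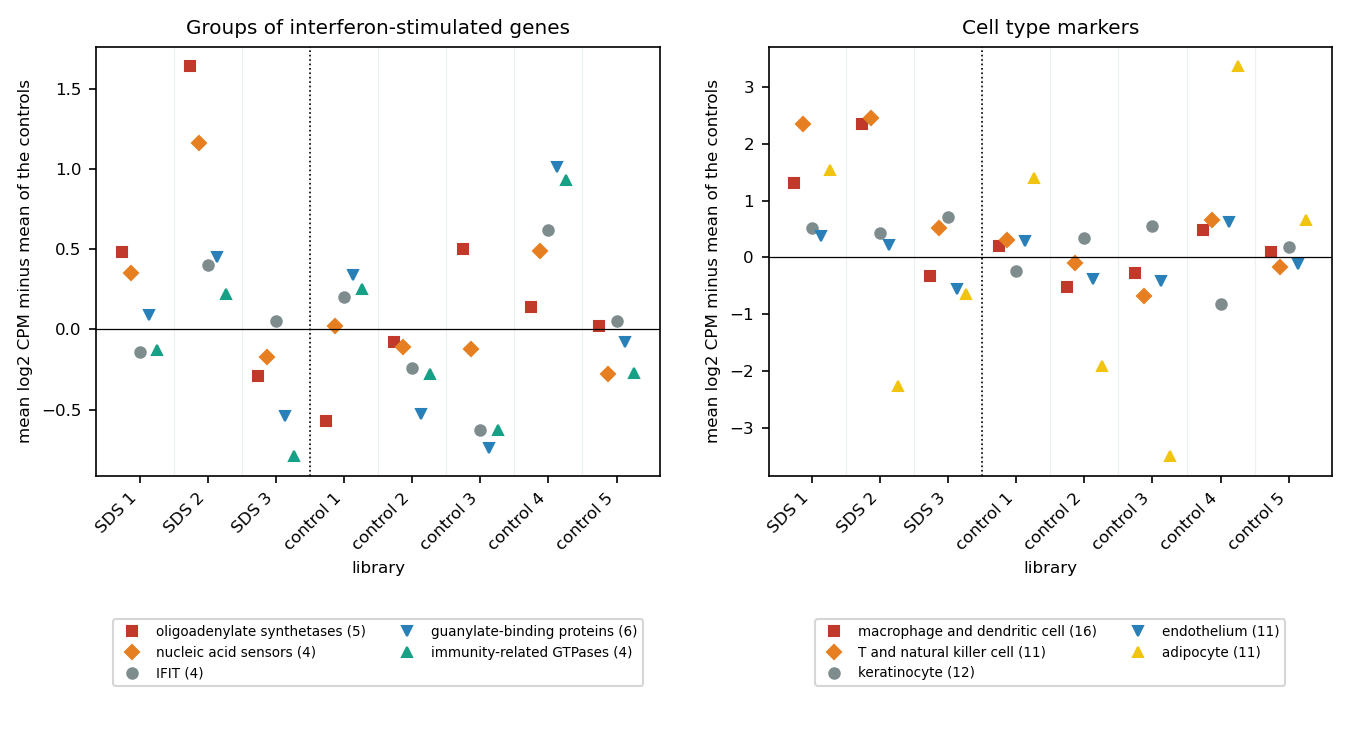
Symbols give the mean log2 CPM of each gene group minus the mean of the 5 controls in each library, for families of interferon-stimulated genes (left) and cell type markers (right, on a wider scale). Oligoadenylate synthetases reach 1.64 in SDS library 2, and guanylate-binding proteins reach 1.01 in control library 4, where adipocyte markers reach 3.36.

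Interferon transcripts were almost not detected. Of 21 interferon genes 0 passed the filter and 16 had no count in any library. Ifnb1 had 0 counts over the SDS libraries and 1 over the controls, Ifng had 2 and 1, Ifnl3 had 0 and 1, Ifna7 had 1 and 0, and Ifnz had 3 and 7. Differences of these genes were not detectable in these counts. How multi-mapped reads were counted is not given, so reads shared between related Ifna genes could be missing. Of 8 markers of plasmacytoid dendritic cells, strong producers of type I interferon, 6 were tested and 0 were called, against 1.05% of all tested genes. Siglech, their defining surface receptor, measured 1.45, 1.37 and 0.876 CPM in SDS libraries and 0.626 to 1.52 CPM in the controls. At an unadjusted p under 0.05 by edgeR, Ccr9 (log2 0.79) and Runx2 (1.11) lay higher and Cox6a2 (-0.61) lower, and Spib, under the filter, had ranges apart upward. Cox6a2, Ly6d and Tcf4, also on the list, had control means of 140, 513 and 49.5 CPM, against 0.985 CPM for Siglech. Transcripts at such levels can come from other cells of whole esophagus, which was not tested. The list is therefore no gauge of these cells alone.

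Receptors and their kinases were expressed in every library. None of 14 receptor and signalling genes was called in either direction, where 1.05% of all tested genes were called. The type I receptor chain Ifnar1 measured 31.6, 42.3 and 30.5 CPM in SDS libraries and 26.2 to 34.4 CPM in controls (log2 0.26), and Ifnar2 gave 0.34. The gamma receptor chains Ifngr1 and Ifngr2 gave 0.44 and -0.02, and Il10rb, the partner chain of Ifnlr1, gave 0.06. Ifnlr1, the type III receptor chain typical of epithelia, measured 8.45, 7.27 and 16.9 CPM in SDS libraries and 16.2, 20.8, 19.6, 10.4 and 18.7 CPM in the controls. SDS libraries 1 and 2 were below every control and SDS library 3 was within their range, with a log2 fold change of -0.66 ± 0.32 (SE; edgeR quasi-likelihood adjusted p of 0.317). Socs1, the feedback inhibitor of the kinases, measured 4.05, 4.6 and 1.67 CPM in SDS libraries and 1.23 to 2.55 CPM in controls. It gave 1.06 with an edgeR quasi-likelihood adjusted p of 0.188, and passed without SDS library 3 at 1.39 with an adjusted p of 0.0425. The fit without SDS library 3 called 1 of the 14 higher, against 4.98% of all tested genes. Leaving out any other library gave no call of Socs1.

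Upstream sensing genes were called in neither direction (0 of 16 tested, against 1.05% of all tested genes), with a median log2 fold change of 0.32. DESeq2 called 3 of the 16 higher (Ikbke, Irf8 and Samhd1), and edgeR without SDS library 3 called 4 (Irf8, Samhd1, Tlr7 and Tlr9), and neither called any lower. Among all tested genes, these fits called 5% and 4.98% higher. Ikbke, a kinase that activates Irf3 and Irf7, measured 21.7, 29.0 and 22.0 CPM in SDS libraries and 11.9 to 18.8 CPM in the controls, so the ranges lay apart. Its log2 fold change was 0.67 ± 0.16 (SE; edgeR quasi-likelihood adjusted p of 0.0863, DESeq2 adjusted p of 0.00885). The adaptor Myd88, at 49.3, 61.7 and 57.9 CPM in SDS libraries and 28.8 to 48.7 CPM in controls, gave 0.51 (edgeR quasi-likelihood adjusted p of 0.150). The myeloid factor Irf8 measured 14.3, 28.8 and 5.51 CPM in SDS libraries and 4.48 to 7.81 CPM in controls, and the nuclease Samhd1 measured 89.2, 135 and 45.1 CPM in SDS libraries and 45.5 to 52.8 CPM in controls. Both were low in SDS library 3 alone among the SDS libraries. Irf8 and Samhd1 gave 1.48 and 0.90 and were not called by edgeR on all libraries. They passed without SDS library 3 (1.90 and 1.23, edgeR quasi-likelihood adjusted p of 0.0118 and 0.00563). With any other library left out none of the 16 was called, and those fits called 4 to 122 genes among all tested.

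In the list of further interferon targets outside the 39, the Ifitm genes had the smallest p-values. Of 55 listed, 51 were tested and 0 were called in either direction, where 1.05% of all tested genes were called. Their median log2 fold change was 0.51. At an unadjusted p under 0.05 17 lay higher and 0 lower, against 9.98% and 8.53% of all tested genes, and the ranges lay apart upward for 8 of 51, against 6.49% of all. Ifitm3, a membrane protein that stops viral fusion, measured 202, 268 and 105 CPM in SDS libraries and 81.5, 73.5, 57.9, 87.9 and 67.5 CPM in the controls. All SDS libraries were above all controls, and the log2 fold change was 1.38 ± 0.27 (SE; edgeR quasi-likelihood adjusted p of 0.0529). Ifitm1 measured 21.8, 34.2 and 3.84 CPM in SDS libraries and 2.25 to 3.62 CPM in controls, and gave 2.73 ± 0.54 (SE; edgeR adjusted p of 0.0546). Ifitm2 measured 126, 150 and 70.4 CPM in SDS libraries and 53.9 to 63.1 CPM in controls, and gave 0.99 ± 0.21 (SE; edgeR adjusted p of 0.0620). The calls of these genes depend on the setting: DESeq2 called Ifitm1, Ifitm2 and Ifitm3 (adjusted p of 6.27e-05, 0.00109 and 0.000163), and edgeR without a filter on low counts called Ifitm2 and Ifitm3 (0.0368 and 0.0362). Ifi205, a nucleic acid binding protein of the Ifi200 family, gave 1.08 ± 0.26 (SE; edgeR adjusted p of 0.0800) and was highest in SDS library 3, at 11 CPM. Without SDS library 3, 11 of the 51 were called higher and 0 lower, while none of the 39 members was. Fits that left out any other library called none of these further targets. DESeq2 on all libraries also called 11 of the 51 higher and 0 lower. Without SDS library 3 and by DESeq2, 4.98% and 5% of all tested genes were called higher.

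Targets typical of interferon gamma were called in neither direction, with 0 of 18 tested, where 1.05% of all tested genes were called. Their median log2 fold change was 0.37. The class II transactivator Ciita measured 8.84, 21.5 and 2.84 CPM in SDS libraries and 2.17 to 4.53 CPM in controls (log2 1.62 ± 0.54, SE; edgeR quasi-likelihood adjusted p of 0.158). It passed without SDS library 3 (2.09, edgeR adjusted p of 0.0209) and by DESeq2 on all libraries (1.63, adjusted p of 0.0387). Each of these fits called 1 of the 18 higher, against 4.98% and 5% of all tested genes. No gene of this list was called with any other library left out. The peptide transporter Tap1 measured 17.7, 29.9 and 13.7 CPM in SDS libraries and 12.4 to 17.2 CPM in controls (log2 0.48). Psmb8 gave 0.95 and the GTPase Gbp8 gave 1.80, from 0.982, 1.44 and 0.0834 CPM in SDS libraries and 0.0481 to 0.608 CPM in controls. Cxcl9, the chemokine that draws T cells in response to interferon gamma, did not pass the filter and had 42 counts over the 3 SDS libraries and 119 over the 5 controls. Of the control counts 101 came from control library 4, and the other 4 controls held 18.

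**Figure D4:**
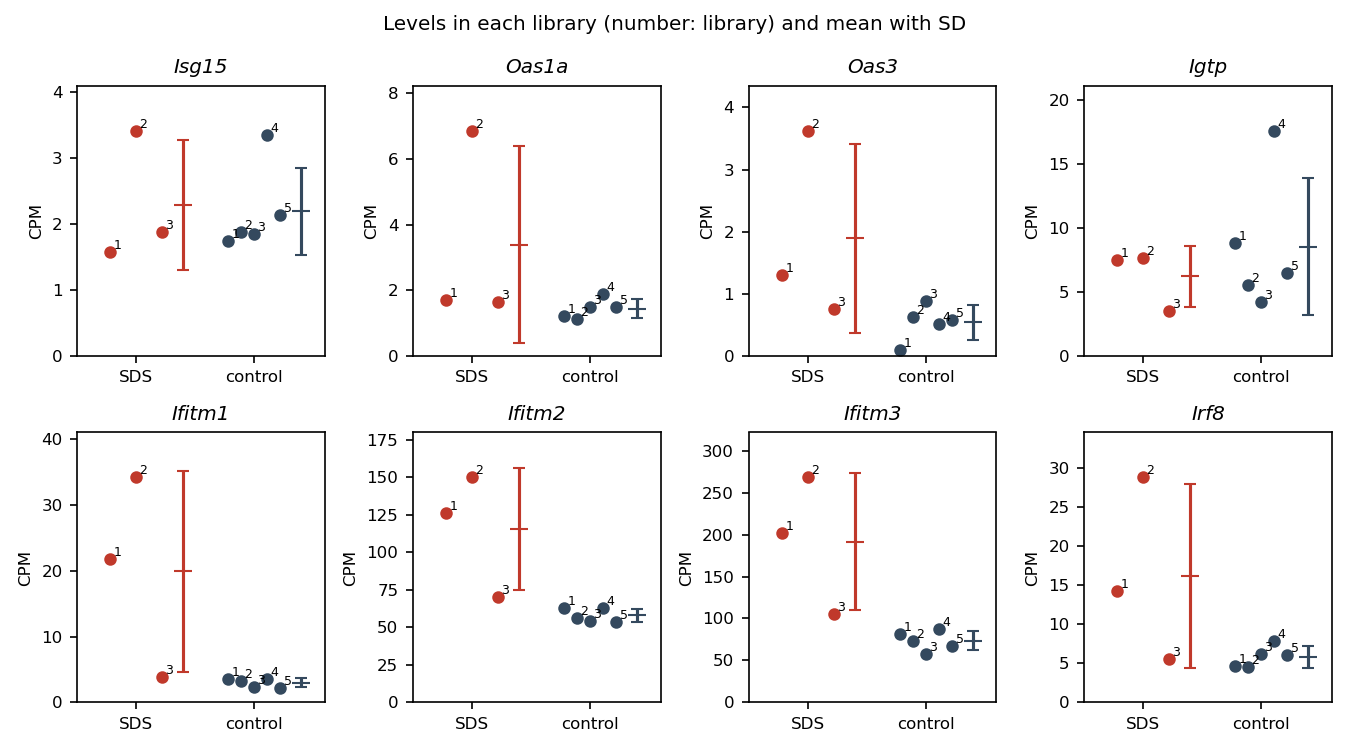
Points are CPM in each library, numbered by library, with the mean and SD of each group beside them, for 4 of the 39 genes (top) and 4 other genes of the interferon system (bottom). Ifitm1, Ifitm2 and Ifitm3 lie higher in all SDS libraries than in any control, whereas Oas1a lies above the controls in SDS library 2 alone and Igtp is highest in control library 4 at 17.6 CPM.

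Leaving out single libraries changed the size and sign of the values but gave no call among the 39. Without SDS library 2 the median of the members was -0.14 with 12 above and 27 below 0, and without SDS library 3 it was 0.22 with 29 above and 10 below. Without control library 4 it was 0.31 with 30 above and 9 below. By edgeR, the smallest adjusted p among members was 0.48 without SDS library 2, 0.075 without SDS library 3 (Oas3) and 0.146 without control library 4 (Irf7).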

How the data were processed

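The authors deposited raw counts per gene, 1 table per library, for 49315 Ensembl identifiers on mm10. Per the submitters' processing notes, STAR 2.6.1c and Subread were used. Not given in the sources used here: the annotation release, the strand setting and how multi-mapped reads were counted. Per the labels' protocols, RNA was selected for poly(A); the extraction text speaks of cell pellets and the treatment text of whole esophagus. Gene symbols matched 48970 identifiers.

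The tests ran in edgeR 4.0.16 (R 4.3.3): filterByExpr (minimum count 10, minimum total 15), TMM scaling, a robust quasi-likelihood fit of group over all 8 libraries, two-sided, with Benjamini-Hochberg adjustment over 17179 genes and a threshold of 0.05. Standard errors (SE) were derived from the fold change and its F statistic (|log2 fold| over root F), and 95% intervals use the fit's degrees of freedom. CPM use TMM-scaled library sizes, and log2 CPM a prior count of 2. The procedure was tested on simulated counts. Libraries of a group were no copies of each other (lowest chi-square per degree of freedom 22.1).

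The members, lists, motifs and named genes (all members, all receptors, and up to 4 genes of each other pathway list by smallest p) were chosen with earlier results of these data known. Other named genes were chosen after their values were seen. DESeq2 1.42.0, limma 3.58.1, other scalings and filters, a replicate block and leaving out each library were the alternatives. The values of 1 gene of the receptor and signalling list are not reported here.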

Additional observations from a re-analysis of the deposited data

Results flagged for a closer look

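Among the 5 controls, 5 of the 39 genes had a library far from the others, by a test that flags about 1 in 20 groups of normally distributed values by chance. The test was run on CPM without logarithms and on these genes only, so no share over all genes stands beside the count. Many members also varied together, so the flags are not independent. Control library 4 was the high one for 4 of them, and it exceeded the other controls for 32.1% of all tested genes. Irf7 measured 7.27 CPM there and at most 4.04 CPM in another control, Ddx58 14.1 CPM and at most 9.25 CPM, Isg15 3.35 CPM and at most 2.14 CPM, and Rtp4 9.97 CPM and at most 4.47 CPM. Oasl1 measured 10.1 CPM in control library 3 and at most 2.52 CPM in another control.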

How the results depend on the processing

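No member was called in any of the 15 alternatives. The count over all genes was 180, and it was 1610 by DESeq2, 0 with the replicate block (edgeR, where 3173 had an unadjusted p under 0.05) and 4 to 1222 when 1 library was left out. Deviations of same-numbered libraries correlated at 0.31, -0.01 and 0.31. Those of differently numbered libraries were not compared, so these values cannot show whether replicate numbers pair the libraries. Control libraries 4 and 5 have no SDS library of the same number, so under the block they add nothing to the fold changes. The block called no gene at all, so its lack of calls says nothing of the stability of single members. The median of the members was 0.33 with 30 folds above 1 under the block, against 0.07 and 25 in the main fit. With no block but without control library 4, these were 0.31 and 30. Signs turned under the block for Ifit3b (0.06), Rtp4 (0.33), Gbp6 (0.44), Gbp7 (0.13) and Iigp1 (0.15), by limma-voom for Rtp4 (0.07), and for Ifi35 with upper quartile scaling (0.01) and without a filter (0.00). The filter of 1 CPM in 3 libraries left out Oas3 and Mx2. With 1 library left out, log2 fold changes that took both signs ran from -0.13 to 0.50 for Irf1, -0.05 to 0.20 for Stat2, -0.14 to 0.08 for Ifih1, -0.14 to 0.30 for Ddx58, -0.35 to 0.28 for Isg15, -0.27 to 0.26 for Ifit2, -0.10 to 0.43 for Ifit3, -0.16 to 1.18 for Oas2, -0.66 to 0.46 for Oasl1, -0.19 to 0.78 for Oasl2, -0.16 to 1.40 for Mx1, -0.37 to 0.42 for Rtp4, -0.11 to 0.16 for Xaf1, -0.10 to 0.51 for Parp14, -0.11 to 0.09 for Ifi35, -0.32 to 0.31 for Gbp5, -0.58 to 0.17 for Gbp6, -0.41 to 0.01 for Gbp7, -0.16 to 0.21 for Irgm1 and -0.70 to 0.19 for Iigp1. The cause was not tested. Of 583 values of single members under the alternatives, 539 kept their sign and 44 did not. The 95% intervals of 13 of 39 members excluded a 2-fold change in both directions, and those of the others did not.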

Other observations

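Ifi27l2a, an interferon-induced relative of Ifi27 chosen after its values were seen, measured 96.6, 58.1 and 56.9 CPM in SDS libraries and 82.3, 22.2, 10.4, 282 and 53.0 CPM in control libraries 1 to 5. Summed adipocyte markers were 2140, 312 and 579 CPM in the same SDS libraries and 2020, 548, 362, 7170 and 1240 CPM in the same controls, so that both were highest in control library 4 and lowest of the controls in control library 3. Summed endothelial markers were 373, 332 and 184 CPM in the SDS libraries and 345, 220, 208, 423 and 263 CPM in the controls. They too were highest in control library 4 and lowest of the controls in control library 3. The part of attached fat or endothelium in the level of Ifi27l2a was not tested. The schlafen genes Slfn1 and Slfn2, also chosen after their values were seen, were high in SDS libraries 1 and 2 and near the controls in SDS library 3. Slfn2 measured 23.0, 30.1 and 7.26 CPM in SDS libraries and 2.92 to 8.65 CPM in the controls, and Slfn1 measured 3.34, 4.99 and 0.125 CPM in SDS libraries and 0.0739 to 0.481 CPM in the controls.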
